A study of Mus musculus with 12 samples.

Results

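The genes described here are the 3 cytokines IL-19, IL-20 and IL-24 (Il19, Il20, Il24), the chains of the receptors they share with IL-22 (Il20ra, Il20rb, Il22ra1, Il10rb), and the soluble IL-22 binding protein (Il22ra2). They were chosen by name as a cytokine family with its receptors, with earlier results of these data known. All 8 were found among the 47643 gene IDs of the deposited tables. Skin was taken at 10 weeks of age from C57BL/6 mice that were either wild type (WT) or conditionally lacking ADAM17 (KO), the second made with a Sox9-Cre driver and floxed ADAM17 alleles. From each genotype, poly(A) RNA of whole skin and of epidermis was sequenced in 3 libraries, which gives the groups Skin WT, Skin KO, Epidermis WT and Epidermis KO. ADAM17 is a membrane protease that sheds ligands of the EGF receptor, TNF and other surface proteins. Sox9 is active in the hair follicle lineage, so Cre is not expected in every cell of these tissues. Nothing in the labels states that libraries of a group are separate mice, or that a skin and an epidermis library of 1 number share a mouse. Libraries within each KO group differed in their Y-linked and Xist reads, given below, so they were not repeats of 1 RNA sample. In the WT groups every library held Xist reads and none held Y-linked reads, so these reads do not tell WT libraries apart. Libraries of each WT group still differed by more than sampling noise. The p-values describe the spread among these samples, which may in part be technical.

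IL-19, IL-20 and IL-24 belong to the IL-10 superfamily. All of them signal through a receptor of the chains IL-20RA and IL-20RB, and IL-20 and IL-24 also signal through IL-22RA1 paired with IL-20RB. IL-22 uses IL-22RA1 with IL-10RB, a chain that IL-10 and the lambda interferons share, and IL-22RA2 is a secreted receptor without a membrane anchor that binds IL-22 and keeps it from the cell. The signalling chains work through JAK kinases and mainly STAT3, and in skin the keratinocytes are the best known responders, where these cytokines drive epidermal thickening, delayed differentiation and antimicrobial genes.

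Depth ran from 12208522 to 16743144 expected counts, at which 3 counts correspond to 0.246 down to 0.179 CPM, the library-size normalised count. Levels below are CPM scaled by TMM over all 12 libraries unless TPM, which also divides by transcript length, is named. Adam17, the targeted gene, was lower in every KO library than in any WT library, by -0.75 on the log2 scale in skin (SE 0.16, adjusted p = 0.0080) and by -0.66 in epidermis (SE 0.12, adjusted p = 0.0021, edgeR quasi-likelihood test with Benjamini-Hochberg adjustment, as for every adjusted p below unless another tool is named). Y-linked genes had 0 reads in all 6 WT libraries and in Skin KO 2, and between 213 and 1781 reads in the other 5 KO libraries. Xist, which is expressed from the inactive X chromosome of females, had 0 reads in Skin KO 1 and Epidermis KO 1, 319 to 2511 in the other 4 KO libraries and 660 to 3222 in the WT libraries. Skin KO 3, Epidermis KO 2 and Epidermis KO 3 held reads of both kinds. Genotype and sex of the mice are thus partly mixed. Keratinocyte markers (6 genes) were detected in all groups. They summed to between 26780 and 31456 CPM in Skin WT, 47611 to 56948 in Skin KO, 51934 to 58096 in Epidermis WT and 66919 to 96644 in Epidermis KO. Krt1 went from 2425 to 16634 CPM in skin and from 4441 to 28667 in epidermis, while Krt5 went from 13524 to 6157 in epidermis. Of the 6 genes, 2 were called higher and 0 lower in skin, and 2 higher and 1 lower in epidermis. Of all genes tested 45.5% and 51.5% were called. Hair follicle markers (7 genes) summed to between 3709 and 4496 CPM in Skin WT, 690 to 3716 in Skin KO, 7068 to 9506 in Epidermis WT and 437 to 1313 in Epidermis KO. Most of the WT sums was Krt15, which went from 3870 to 511 CPM in skin and from 8009 to 733 in epidermis, and 3 of 6 tested follicle markers were called lower and 0 higher in each tissue. Krt71 and Krt25, keratins of the inner root sheath, had higher means in KO without a call (69.9 and 41.1 CPM in Skin WT, 799 and 618 in Skin KO). Neutrophil markers (6 genes) went from between 22.1 and 28.3 CPM to between 8409 and 9065 in skin, and from between 8.29 and 10.5 to between 3363 and 10967 in epidermis. Nearly all of the KO sums was S100a8 and S100a9 (3232 and 5406 CPM in Skin KO), which keratinocytes also make. Cxcr2, a neutrophil chemokine receptor, went from 0.258 to 28.6 CPM in skin and from 0.0524 to 55.2 in epidermis. Of the 5 neutrophil markers tested 4 were higher in each tissue, and Mmp9 was lower in skin (23.2 to 11.4 CPM, adjusted p = 0.0362) and not called in epidermis. Fibroblast markers (6 genes) reached at most 9.03 CPM in Epidermis WT and 97.3 in Epidermis KO, against at least 1718 in Skin WT. In Skin KO they summed to between 577 and 1335 CPM (4 of 6 called lower). Skeletal muscle markers (5 genes, 5 called lower) went from between 6439 and 53588 CPM in Skin WT to between 433 and 2299 in KO. Adipocyte markers (5 genes, 4 called lower) went from between 494 and 852 CPM to between 60.6 and 119.7 in skin. Endothelial markers (5 genes, 5 called lower) went from between 84.4 and 97.3 CPM to between 23.1 and 31.99 there. In bulk RNA, fewer cells of a type and less RNA per cell cannot be told apart, and the part of these shifts in the results below was not tested.

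The 3 cytokine genes lie side by side on the minus strand of chromosome 1 (GRCm38, GENCODE release 21), Il24 at chr1:130882074-130887454, Il20 at chr1:130906985-130911451 and Il19 at chr1:130932656-130940115, within 58.042 kb. Il22ra2 (chr10:19621998-19634681) and Il20ra (chr10:19712570-19760053) are also neighbours, 77.888 kb apart on the plus strand. Il20rb lies at chr9:100457719-100486788 on the minus strand, Il22ra1 at chr4:135728172-135752140 and Il10rb at chr16:91406164-91425834, both on the plus strand. The RefSeq promoter table (GRCm38.p6) had an entry for 5 of the 8 genes and none for Il24, Il22ra2 and Il10rb. Shown are the 250 bases before the RefSeq start of the 4 genes among these 5 that changed in both tissues, Il19 (chr1:130940116-130940365, minus strand), Il20 (chr1:130911297-130911546, minus strand), Il20ra (chr10:19712337-19712586, plus strand) and Il20rb (chr9:100486474-100486723, minus strand), each 5′ to 3′ in the direction of the gene. Capitals mark matches, on either strand, to the motifs of STAT (TTCNNNGAA or TTCNNNNGAA), AP-1 (TGANTCA), C/EBP (TTGCNNAA) and NF-kB.
Il19: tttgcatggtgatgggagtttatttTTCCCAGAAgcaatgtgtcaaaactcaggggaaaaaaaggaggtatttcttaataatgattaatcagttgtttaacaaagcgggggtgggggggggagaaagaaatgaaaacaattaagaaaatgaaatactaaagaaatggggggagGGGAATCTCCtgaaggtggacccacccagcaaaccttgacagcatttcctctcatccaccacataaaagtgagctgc
Il20: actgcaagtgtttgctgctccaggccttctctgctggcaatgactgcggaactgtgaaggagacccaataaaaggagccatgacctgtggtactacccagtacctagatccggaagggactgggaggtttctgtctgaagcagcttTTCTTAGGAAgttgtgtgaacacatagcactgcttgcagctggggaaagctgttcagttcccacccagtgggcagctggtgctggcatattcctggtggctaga
Il20ra: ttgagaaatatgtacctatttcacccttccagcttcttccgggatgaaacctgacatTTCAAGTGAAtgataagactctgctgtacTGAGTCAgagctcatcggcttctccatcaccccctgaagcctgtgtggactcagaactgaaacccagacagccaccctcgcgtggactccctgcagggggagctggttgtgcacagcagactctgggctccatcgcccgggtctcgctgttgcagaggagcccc
Il20rb: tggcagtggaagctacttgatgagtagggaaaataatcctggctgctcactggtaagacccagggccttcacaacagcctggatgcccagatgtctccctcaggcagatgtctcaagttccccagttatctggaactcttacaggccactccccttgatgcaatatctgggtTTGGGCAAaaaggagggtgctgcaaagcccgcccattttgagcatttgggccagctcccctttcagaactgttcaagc
The Il19 window held a STAT match (TTCCCAGAA, -225 to -217 from the start) and an NF-kB match (GGGAATCTCC, -77 to -68), and the Il20 window held 1 STAT match (TTCTTAGGAA, -104 to -95). The Il20ra window held a STAT match (TTCAAGTGAA, -193 to -184) and an AP-1 match (TGAGTCA, -164 to -158), and that of Il20rb a C/EBP match (TTGGGCAA, -78 to -71). Il22ra1, whose window is not shown, had an AP-1 match (TGAATCA, -222 to -216) and an NF-kB match (GGAACCTCCC, -156 to -147). A STAT match was present in 12.4% of all 32851 promoter windows, an AP-1 match in 6.75%, a C/EBP match in 9.56% and an NF-kB match in 7.25%. The RefSeq and GENCODE starts differ for some of these genes. By the positions above, the Il20rb window lies wholly inside the GENCODE gene, and the Il20 and Il20ra windows lie partly inside theirs. The Il20 STAT match and the Il20rb C/EBP match thus fall within the GENCODE genes, not upstream of them. STAT letters occurred in windows of genes that rose (Il19, Il20) and of a gene that fell (Il20ra), and a match of letters is not a binding site.

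The question the groups pose is which genes differ between KO and WT in each tissue. In whole skin all 3 cytokine genes were higher in KO, Il20ra, Il20rb and Il22ra2 were lower, and Il22ra1 and Il10rb were not called. In epidermis Il19 and Il20 were higher, the same 3 receptor genes were lower, and Il22ra1 and Il10rb were called higher by a smaller amount, while Il24 had too few reads for the expression filter. All 8 genes passed that filter in skin and 7 in epidermis. Many genes differed between the genotypes: in skin 45.5% of the 14906 genes tested were called (22.2% higher, 23.3% lower), and in epidermis 51.5% of 13632 (26.2% higher, 25.3% lower). The number of members called, 6 of 8 in skin and 7 of 7 in epidermis, is to be read against those shares, with a limit. Il24 in skin and Il19 in epidermis, with 0 reads in WT, passed the filter only through their KO reads. They could not be called lower, so the comparison is not fully alike. All called members had libraries that did not overlap between genotypes, as 58% of the genes tested had in skin (25.8% higher in KO, 32.2% lower) and 62% in epidermis (30.4% higher, 31.6% lower). The skin comparison and the epidermis comparison share no library.

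Il19, whose product signals only through IL-20RA with IL-20RB, was the most read of the cytokine genes in KO. It had 0, 6 and 6 reads in the Skin WT libraries against 173, 217 and 160 in Skin KO, which is 0, 0.313 and 0.364 CPM against 12.3, 15.5 and 10.1 CPM. Each Skin KO library stood far above each Skin WT library, and the log2 fold change was 5.78 (SE 0.56, adjusted p = 0.000483). In epidermis Il19 had 0 reads in all 3 WT libraries and 56, 59 and 12 reads in KO (4.43, 4.69 and 0.848 CPM). Against 3 reads over the WT group this is at least 40.1-fold higher (adjusted p = 0.00263). Epidermis KO 3, with 12 reads, was the lowest of the KO libraries.

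Il20, which acts on keratinocytes through both receptor types, was the only cytokine of the 3 with reads in every library. Skin WT held 0.350, 0.679 and 0.182 CPM (5, 13 and 3 reads) and Skin KO 2.84, 5.36 and 3.11 CPM (40, 75 and 49 reads). The groups did not overlap, and the log2 fold change was 3.25 (SE 0.49, adjusted p = 0.00238). In epidermis the WT libraries held 1, 1 and 2 reads and the KO libraries 20, 14 and 39 (1.58, 1.11 and 2.75 CPM). The log2 fold change there was 3.99 (SE 0.59, adjusted p = 0.000785), again without overlap. The library with the most Il20 reads in epidermis, KO 3, was the one with the fewest Il19 and Il24 reads of that group.

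Il24, which uses the same receptor pairs as Il20, was the least read of the family. It had 0 reads in all Skin WT libraries and 27, 27 and 17 in Skin KO (1.92, 1.93 and 1.08 CPM), at least 27.6-fold higher against 3 reads over the group (adjusted p = 0.00181). In epidermis there were 0, 1 and 0 reads in WT and 8, 8 and 2 in KO, a ratio of reads of 17.1 with a 95% counting interval from 2.70 to 711. That difference was not tested with the filter on low counts. In WT mice the 3 cytokine genes together thus had few reads in either tissue, and the sum of reads limits how well their WT level is known.

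**Figure D1:**
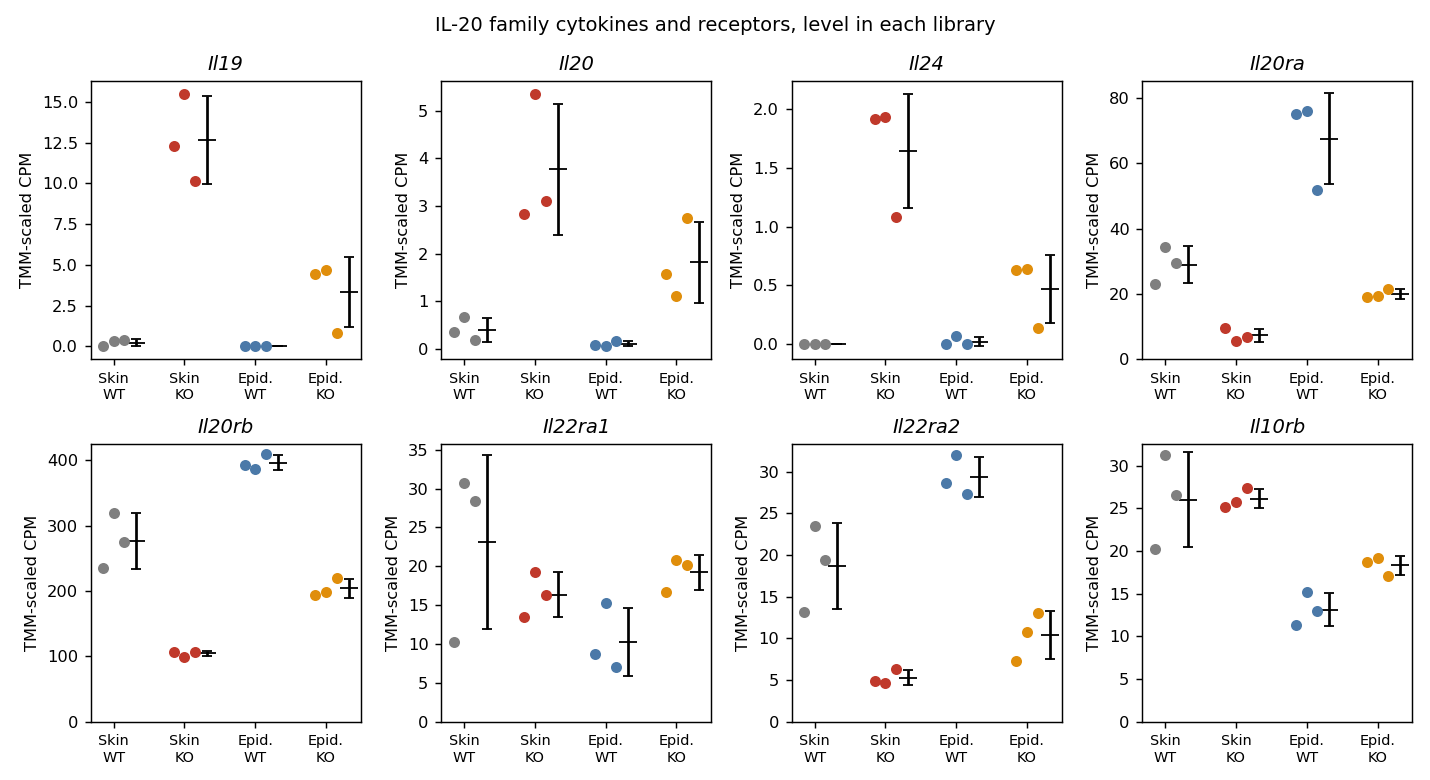
Level of each of the 8 genes in the 12 libraries (y axis, TMM-scaled CPM), with 1 panel per gene, 1 point per library and a bar beside them for the mean and SD of the 3 libraries of a group. Il19 reaches 10.1 to 15.5 CPM in Skin KO against at most 0.364 in Skin WT, while Il20ra, Il20rb and Il22ra2 are highest in Epidermis WT and lowest in Skin KO.

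Il20ra encodes the chain that all 3 cytokines bind in the first receptor type. Its level was 23.1, 34.2 and 29.6 CPM in Skin WT and 9.51, 5.43 and 6.79 CPM in Skin KO. The fold change was -1.91 on the log2 scale (SE 0.25, adjusted p = 0.00129). In epidermis it went from 75.0, 76.1 and 51.7 CPM to 18.9, 19.2 and 21.5 CPM, by -1.75 on the log2 scale (SE 0.17, adjusted p = 9.81e-05). Neither tissue had any overlap between genotypes, and Il20ra was 3.75-fold lower in skin and 3.37-fold lower in epidermis.

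Il20rb encodes the chain common to both receptor types of IL-20 and IL-24. Skin WT held 235, 320 and 275 CPM and Skin KO 107, 99.8 and 107 CPM, which is -1.31 on the log2 scale (SE 0.14, adjusted p = 0.000702). Epidermis WT held 393, 387 and 410 CPM and Epidermis KO 193, 198 and 221 CPM, which is -0.94 on that scale (SE 0.11, adjusted p = 0.000296). The groups did not overlap in either tissue. Per transcript length Il20rb was the highest of the 8 genes in all 12 libraries, at 173 ± 10.0 TPM in Epidermis WT and 60.9 ± 2.80 TPM in Skin KO (SD, n = 3), where Il20ra stood at 33.9 ± 9.64 and 5.10 ± 1.44 TPM.

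Il22ra1 encodes the chain through which IL-22 and, with IL-20RB, also IL-20 and IL-24 signal. In Skin WT it was at 10.2, 30.7 and 28.4 CPM and in Skin KO at 13.5, 19.3 and 16.3 CPM, so the groups overlapped. The log2 fold change of -0.40 had a 95% interval from -1.31 to 0.50 (adjusted p = 0.426). Skin WT 1 stood apart from the other 2 WT libraries for this gene. Without it Il22ra1 was called lower in Skin KO (log2 fold change -0.77, adjusted p = 0.0119). In epidermis the WT libraries held 8.66, 15.2 and 6.997 CPM and the KO libraries 16.7, 20.8 and 20.2 CPM, which do not overlap. The log2 fold change was 0.91 (SE 0.27, adjusted p = 0.0207), a call that 6 of 15 alternatives ended (adjusted p from 0.00227 to 0.0756), 4 of them leaving out a library: Epidermis WT 1 (0.0756), Epidermis WT 3 (0.0559), Epidermis KO 2 (0.0580) or Epidermis KO 3 (0.0501).

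Il10rb encodes the widely expressed second chain of the receptors of IL-22, IL-10 and the lambda interferons. Its level was 20.3, 31.3 and 26.5 CPM in Skin WT and 25.2, 25.8 and 27.3 CPM in Skin KO, so the KO libraries lay within the WT range. The log2 fold change was 0.10 with a 95% interval from -0.31 to 0.50 (adjusted p = 0.678). Epidermis WT held 11.3, 15.2 and 12.96 CPM and Epidermis KO 18.7, 19.2 and 17.1 CPM, without overlap. The log2 fold change of 0.49 (SE 0.15, adjusted p = 0.0245) lost its call in 5 of 15 alternatives (adjusted p from 0.0158 to 0.112), among them those without Epidermis WT 1 (0.0889), Epidermis WT 3 (0.0513), Epidermis KO 1 (0.0584) or Epidermis KO 2 (0.0774).

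Il22ra2, the gene of the soluble IL-22 binding protein, is known to be made by dendritic cells. Skin WT held 13.2, 23.5 and 19.4 CPM and Skin KO 4.89, 4.64 and 6.34 CPM, which is -1.72 on the log2 scale (SE 0.25, adjusted p = 0.00199). Epidermis WT held 28.7, 31.99 and 27.3 CPM and Epidermis KO 7.28, 10.8 and 12.997 CPM, which is -1.48 on that scale (SE 0.21, adjusted p = 0.000587). All KO libraries lay below all WT libraries in both tissues. Markers of dendritic and Langerhans cells (6 genes, none at 0 in any group) summed to 319 to 353 CPM in Skin WT and 320 to 417 CPM in Skin KO. Their sum was 127 to 172 CPM in Epidermis WT and 226 to 488 CPM in Epidermis KO. Most of each sum was H2-Ab1 (290.0 CPM in Skin WT and 334 in Skin KO), a class II gene that other cells also express. Of the 6 markers tested in skin 2 were called higher (Itgax and Ccr7) and 1 lower (Zbtb46, from 2.34 to 0.838 CPM), where 45.5% of all genes were called. Cd207, the Langerhans cell marker, went from 32.04 ± 2.06 to 20.5 ± 8.83 CPM in skin (SD, n = 3, adjusted p = 0.192) and from 17.1 ± 2.07 to 23.9 ± 6.69 CPM in epidermis (adjusted p = 0.0676). Of the 4 tested in epidermis 3 were higher and 0 lower, where 26.2% of all genes were called higher. The part of dendritic and Langerhans cells in the level of Il22ra2 was not tested.

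**Figure D2:**
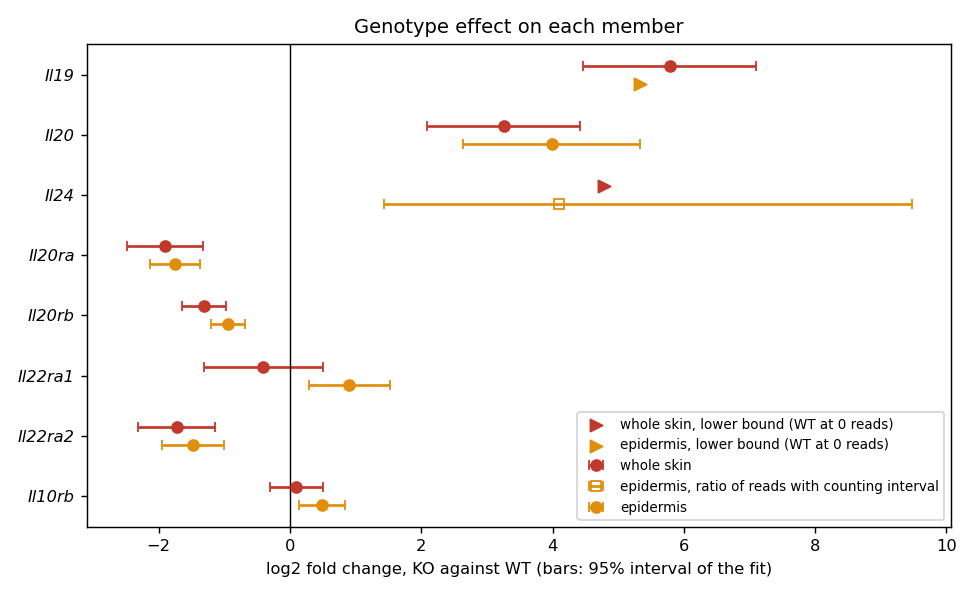
Difference between KO and WT for each gene (x axis, log2 fold change) in whole skin and in epidermis. Points with bars are fitted values with their 95% interval, triangles are lower bounds for genes with 0 reads in WT, and the open square is a ratio of reads with its counting interval. Il20ra, Il20rb and Il22ra2 lie left of 0 in both tissues with intervals that do not reach it, and the interval of Il22ra1 spans 0 in skin and lies above it in epidermis.

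Where Y-linked reads are concerned, the 6 calls in skin were also made with Skin KO 2 as the only KO library, the one without such reads (adjusted p from 0.0106 for Il19 to 0.0427 for Il20rb), a fit in which a lone KO library is taken to vary as the WT group does. With the share of Y-linked reads as a covariate the 6 skin calls stood as well (adjusted p from 0.0023 to 0.0203). In epidermis every KO library held Y-linked reads, so none could be left out on that ground. With the covariate Il19, Il20, Il20ra, Il20rb and Il22ra2 were still called (adjusted p from 0.00349 to 0.0156), and Il22ra1 (adjusted p = 0.0520) and Il10rb (adjusted p = 0.112) were not.

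The ratio of 2 receptor genes within a library describes the mix of their RNA without depending on how libraries were scaled. Such a ratio can mix RNA of several cell types. Il22ra1 and Il20ra encode alternative partners of IL-20RB, not 2 chains of 1 receptor. The ratio of Il22ra1 to Il20ra in TPM was 0.354, 0.717 and 0.767 in Skin WT and 1.13, 2.83 and 1.91 in Skin KO, 3.16-fold higher. In epidermis it went from 0.0921, 0.160 and 0.108 to 0.704, 0.868 and 0.748, 6.60-fold higher. WT libraries thus held more RNA of Il20ra than of Il22ra1 in both tissues, and in all 3 Skin KO libraries the order was the opposite.

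The ratio of Il22ra2, the decoy, to Il22ra1, the signalling chain, was lower in KO in both tissues. It was 1.33, 0.787 and 0.703 in Skin WT against 0.374, 0.249 and 0.401 in Skin KO (2.70-fold lower), and 3.42, 2.16 and 4.02 in Epidermis WT against 0.450, 0.534 and 0.663 in Epidermis KO (5.71-fold lower). The ratio of Il20rb to Il20ra, the chains of 1 receptor, was 8.74, 7.67 and 7.42 in Skin WT against 9.11, 15.6 and 12.99 in Skin KO, and 4.67, 4.43 and 7.09 in Epidermis WT against 8.54, 8.57 and 8.60 in Epidermis KO. Il20rb stayed in excess of both of its partners in every library, with lowest ratios of 4.43 to Il20ra (Epidermis WT 2) and 5.50 to Il22ra1 (Skin KO 2).

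With 3 libraries against 3, a two-sided exact permutation test cannot go below p = 0.10. Of the 10 tests made (5 ratios in 2 tissues), 8 had that smallest p (adjusted p = 0.125), among them all of the ratios above. The ratio of Il10rb to Il22ra1 overlapped between genotypes, with an exact permutation p of 0.30 in skin and 0.20 in epidermis.

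**Figure D3:**
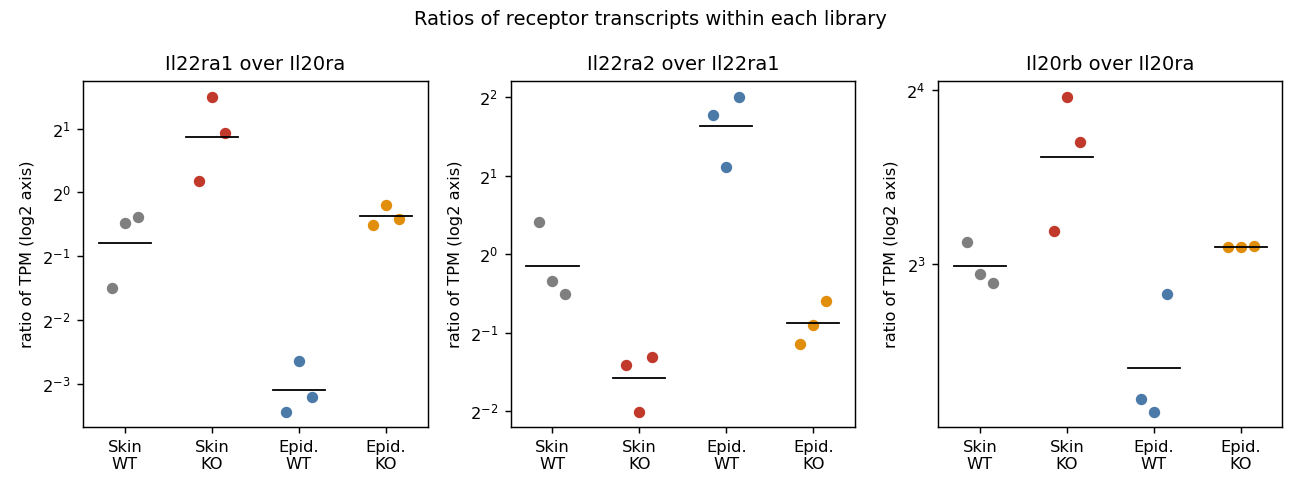
Ratios of TPM within a library for pairs of receptor genes (y axis, log scale), 1 point per library in the 4 groups and a line at the mean of a group's log ratios. The ratio of Il22ra1 to Il20ra lies between 0.0921 and 0.160 in Epidermis WT and between 0.704 and 0.868 in Epidermis KO, and that of Il22ra2 to Il22ra1 lies higher in WT than in KO in both tissues.

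The WT libraries show in which preparation each gene was read more. In this comparison 42.9% of 14596 genes were called (17.5% higher in epidermis, 25.3% lower), and of the 5 members tested 3 were higher and 1 lower. Those 4 had no overlap between the groups, as 56.5% of all genes tested (27.5% higher, 29% lower). Il20ra was 2.29-fold higher in Epidermis WT than in Skin WT (log2 1.20, SE 0.20, adjusted p = 0.00258), Il20rb 1.41-fold (log2 0.50, SE 0.15, adjusted p = 0.0334) and Il22ra2 1.55-fold (log2 0.63, SE 0.20, adjusted p = 0.0389). The calls of Il20rb and Il22ra2 were lost in 6 and 5 of 14 alternatives, in each without any 1 of Skin WT 3 or the 3 Epidermis WT libraries (adjusted p between 0.0713 and 0.105), and that of Il20rb also with the replicate number as a block (adjusted p = 0.0820). Il10rb was 2.01-fold lower in epidermis (log2 -1.01, SE 0.19, adjusted p = 0.00453). Il22ra1 was 2.27-fold lower without passing the test (log2 -1.18, 95% interval -2.18 to -0.19, adjusted p = 0.0573), and it did pass without Skin WT 1 (adjusted p = 0.00360), without Epidermis WT 2 (adjusted p = 0.0426) or with the replicate block (adjusted p = 0.0336). The cytokine genes had too few reads in WT for a test.

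Between the KO groups 29.9% of 14117 genes were called (14.1% higher in epidermis, 15.9% lower), and of the 8 members 3 were higher and 3 lower in epidermis. Libraries of the 2 groups did not overlap for 7 members, and for 47.8% of all genes tested (24.2% higher, 23.6% lower). The cytokine genes were read more in whole skin: Il19 was 3.83-fold lower in Epidermis KO than in Skin KO (log2 -1.94, SE 0.52, adjusted p = 0.0291) and Il24 3.50-fold lower (log2 -1.81, SE 0.53, adjusted p = 0.0388). Both calls depended on single libraries. That of Il19 was lost without any 1 of the Skin KO libraries or Epidermis KO 1 (adjusted p from 0.0570 to 0.0852), and that of Il24 without any 1 of the 6 libraries (adjusted p from 0.0618 to 0.109). Il20 was 2.06-fold lower without a call (95% interval on the log2 scale -1.99 to -0.09, adjusted p = 0.0931). Il20ra was 2.74-fold, Il20rb 1.95-fold and Il22ra2 1.95-fold higher in Epidermis KO (adjusted p = 0.00404, 0.00153 and 0.0263), and the call of Il22ra2 was lost without Skin KO 1, Skin KO 2, Epidermis KO 2 or Epidermis KO 3 (adjusted p from 0.0692 to 0.0810). Il10rb was 1.43-fold lower (adjusted p = 0.00926), and Il22ra1 differed by 0.23 on the log2 scale with a 95% interval from -0.15 to 0.61 (adjusted p = 0.320).

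Over the 4 groups the members fell into few orders. Il20ra, Il20rb and Il22ra2 had their mean levels in the order Epidermis WT, Skin WT, Epidermis KO, Skin KO. Il20ra stood at 67.6 ± 13.8, 29.0 ± 5.59, 19.9 ± 1.45 and 7.24 ± 2.08 CPM (SD, n = 3 each) in that order. Il20rb stood at 397 ± 11.9, 277 ± 42.8, 204 ± 14.5 and 105 ± 4.17 CPM, and Il22ra2 at 29.3 ± 2.41, 18.7 ± 5.19, 10.4 ± 2.89 and 5.29 ± 0.918 CPM. Skin WT and Epidermis KO, neighbours in this order, were not compared by a test, and for Il22ra2 their nearest libraries were 13.2 and 12.997 CPM. Il19, Il20 and Il24 had their means in the order Skin KO, Epidermis KO and then the WT groups, with 12.6 ± 2.69 and 3.32 ± 2.15 CPM for Il19, 3.77 ± 1.38 and 1.82 ± 0.845 CPM for Il20 and 1.64 ± 0.487 and 0.470 ± 0.285 CPM for Il24 in the KO groups. Il22ra1 was lowest in Epidermis WT (10.3 ± 4.36 CPM) after Skin WT (23.1 ± 11.2), Epidermis KO (19.2 ± 2.24) and Skin KO (16.4 ± 2.90), and neighbours in that order overlapped. Il10rb had higher means in skin (26.04 ± 5.52 CPM in WT, 26.1 ± 1.11 CPM in KO) than in epidermis (18.3 ± 1.09 CPM in KO, 13.1 ± 1.94 CPM in WT).

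Whether the genotype effect differed between tissues was tested as an interaction in 1 fit of all 12 libraries, in which 16.5% of 15394 genes were called and the median difference of all genes was 0.08 on the log2 scale. Of the 8 members edgeR called 0, with 2 at an unadjusted p under 0.05, limma-voom called 0 and DESeq2 called 2. The 2 were Il20rb, with a difference of 0.45 (epidermis minus skin, SE 0.17, adjusted p = 0.0921, by DESeq2 0.0410), and Il22ra1, with 1.40 (SE 0.53, 95% interval 0.24 to 2.55, adjusted p = 0.0904, by DESeq2 0.0424). Skin WT 1 bears on both: without it the differences were 0.55 for Il20rb (adjusted p = 0.0193), 1.75 for Il22ra1 (adjusted p = 0.00985) and 0.63 for Il10rb (adjusted p = 0.0356, 0.175 with all libraries). Il22ra1 was also called without Epidermis WT 2 (1.80, adjusted p = 0.0465) and, at the threshold, with the replicate number as a block (1.37, adjusted p = 0.04996). For Il20ra the difference was 0.24 (95% interval -0.44 to 0.91) and for Il22ra2 0.32 (-0.44 to 1.07), and for Il19, Il20 and Il24 the intervals were wide. The call of Il22ra1 and Il10rb in epidermis and not in skin does not by itself show that the tissues differ.

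Further groups of genes around these receptors were looked at. They too were chosen with earlier results of these data known, so their counts are descriptions. The first held the partners of the receptor chains (Il22, Il10, Il10ra and Ifnlr1). Il22, whose product binds IL-22RA1 with IL-10RB and is caught by IL-22RA2, had 0 reads in all 6 WT libraries. It had 12, 2 and 5 reads in Skin KO, at least 7.39-fold higher and under the filter on low counts, and 70, 60 and 41 reads in Epidermis KO (5.54, 4.77 and 2.90 CPM), at least 54.1-fold higher (adjusted p = 0.000226). In the KO groups Il22 thus had more reads in epidermis than in skin, opposite to Il19 and Il24. Il10ra, the IL-10 binding partner of IL-10RB, was called higher in epidermis (log2 1.24, SE 0.42, adjusted p = 0.0354) and not in skin (log2 -0.10, adjusted p = 0.835). The epidermis call of Il10ra was lost without Epidermis WT 1, Epidermis WT 3 or Epidermis KO 2 (adjusted p = 0.105, 0.111 and 0.138). Ifnlr1, the lambda interferon chain, was called lower in skin (log2 -0.63, SE 0.16, adjusted p = 0.0186) and not in epidermis (log2 -0.17, adjusted p = 0.527). The skin call of Ifnlr1 was lost without any 1 of Skin WT 2, Skin WT 3, Skin KO 2 or Skin KO 3 (adjusted p from 0.0568 to 0.0778), with the Y-linked covariate (0.0746) and with Skin KO 2 as the only KO library (0.195). Il10 had 28 reads in Skin KO against 1 in Skin WT and 35 in Epidermis KO against 2 in Epidermis WT.

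The second group was the JAK-STAT machinery below the receptors with its feedback inhibitors, 13 genes, all tested. In skin 4 were higher, 2 lower and 7 not called (median log2 fold change -0.02), and in epidermis 5 were higher, 2 lower and 6 not called (median 0.15), against medians near 0 for all genes. The shares called, 6 of 13 and 7 of 13, lie near the 45.5% and 51.5% of all genes tested, so the counts do not set this group apart. Stat3, the main transcription factor of these receptors, was higher in both tissues. It went from 119, 143 and 154 CPM to 346, 320 and 357 CPM in skin (log2 1.39, SE 0.13, adjusted p = 0.000475) and from 135, 129 and 105 CPM to 508, 446 and 424 CPM in epidermis (log2 1.91, SE 0.14, adjusted p = 2.82e-05).

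Socs3, a feedback inhibitor that STAT3 induces, moved in opposite directions. In skin it rose from 25.6, 38.8 and 31.9 CPM to 76.8, 72.3 and 68.9 CPM (log2 1.27, SE 0.16, adjusted p = 0.00132). In Epidermis WT it stood at 311, 347 and 352 CPM and fell to 135, 176 and 143 CPM in Epidermis KO (log2 -1.14, SE 0.14, adjusted p = 0.000312). The difference of the effects was -2.33 (SE 0.22, adjusted p = 0.000226). Each Epidermis WT library held more Socs3 than any other library of the series, so the KO groups lay between the WT groups. Stat5b was lower in skin (log2 -1.09, SE 0.16, adjusted p = 0.00208, and 0.0727 with Skin KO 2 as the only KO library) and not called in epidermis (log2 0.14, adjusted p = 0.508). Jak1, a kinase bound to the receptor chains, was not called in skin (log2 0.08, adjusted p = 0.676) and was higher in epidermis (log2 0.60, SE 0.11, adjusted p = 0.00211).

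The third group held 20 genes known to respond to IL-20 family cytokines or IL-22 in keratinocytes, among them antimicrobial genes and keratins of the thickened epidermis. In skin 18 of 19 tested were higher and 0 lower (median log2 fold change 6.36), and in epidermis 12 of 15 were higher and 1 lower (median 5.43), where 22.2% and 26.2% of all genes tested were higher. The lower gene was Mmp3, which went from 2.24 to 0.759 CPM in epidermis. Cxcl5 and Defb3 in skin (0 and 1 reads in WT) and Defb3 in epidermis (0 reads in WT) passed the filter on low counts only through KO. Such genes could not be called lower, so these counts are not a like comparison with the shares of all genes. Il1f6, the gene of IL-36 alpha, went from between 1.34 and 1.57 CPM to between 102 and 130 CPM in skin (log2 6.36, SE 0.18, adjusted p = 1.32e-05) and from at most 1.17 CPM to between 33.6 and 35.0 CPM in epidermis (log2 5.43, SE 0.27, adjusted p = 5.07e-06). Lcn2, an antimicrobial protein that binds bacterial iron carriers, rose by 8.09 in skin and 9.83 in epidermis on the log2 scale (adjusted p = 4.95e-05 and 5.07e-06). S100a8 and S100a9, which form calprotectin, rose by 11.92 and 12.24 in skin and 11.68 and 11.23 in epidermis (adjusted p at most 1.79e-05). S100a8 and S100a9 are also 2 of the 6 neutrophil markers, and neutrophils are known to carry Lcn2, so neutrophil RNA moved with these genes and its part was not tested. These genes also answer to other cytokines, IL-17A among them.

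The last group held 10 cytokines known to induce IL-20 family genes, of which 7 were tested in each tissue. All 7 were higher in both (median log2 fold change 4.78 in skin and 5.42 in epidermis), against 22.2% and 26.2% of all genes tested. Il17a and Il17f, with at most 1 read in a WT group, passed the filter on low counts only through their KO reads. Such genes could not be called lower, so the count is not a like comparison with those shares. Il17f had 0 reads in all WT libraries and was at least 229.5-fold higher in skin and at least 504.5-fold higher in epidermis (adjusted p = 0.000576 and 3.00e-05). Il17a, known as a product of gamma-delta T cells in mouse skin, had 343 reads in Skin KO against 1 in Skin WT and 1707 in Epidermis KO against 1 in Epidermis WT, ratios of 400.3 (95% counting interval 71.4 to 15856) and 1619 (290.2 to 63977). Il1b went from between 0.280 and 0.668 CPM to between 16.3 and 19.7 CPM in skin (log2 5.31, SE 0.28, adjusted p = 6.86e-05). In epidermis it went from between 0.972 and 2.25 CPM to 57.3, 106 and 15.9 CPM (log2 5.42, SE 0.73, adjusted p = 0.000500), with Epidermis KO 3 lowest, as for Il19. Il23a, a subunit of IL-23, rose by 4.78 in skin (SE 0.34, adjusted p = 0.000178) and 3.20 in epidermis (SE 0.48, adjusted p = 0.000798). Il4, Il6 and Il13, with at most 17 reads in any library, were not tested. T cell markers (7 genes, none at 0 in any group) summed to 46.5 to 58.9 CPM in WT and 54.6 to 86.5 CPM in KO skin, and to 47.7 to 63.6 CPM in WT and 67.4 to 132 CPM in KO epidermis. Most of these sums was Cd3g and Trdc. In each tissue 4 of the 6 T cell markers tested were called higher and 0 lower. In skin Trac went from 0.613 to 2.80 CPM and Cd3e from 6.59 to 4.89 CPM. Macrophage and monocyte markers (6 genes, none at 0 in any group) summed to 267 to 358 CPM in WT and 132 to 343 CPM in KO skin, and to 18.7 to 20.8 CPM in WT and 47.1 to 113 CPM in KO epidermis. Of these 6, 1 was called higher and 1 lower in skin, and 5 higher and 0 lower in epidermis. Lyz2, the largest part of the skin sums, went from 187 to 136 CPM there, and Ccr2 from 5.38 to 17.3 CPM.

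**Figure D4:**
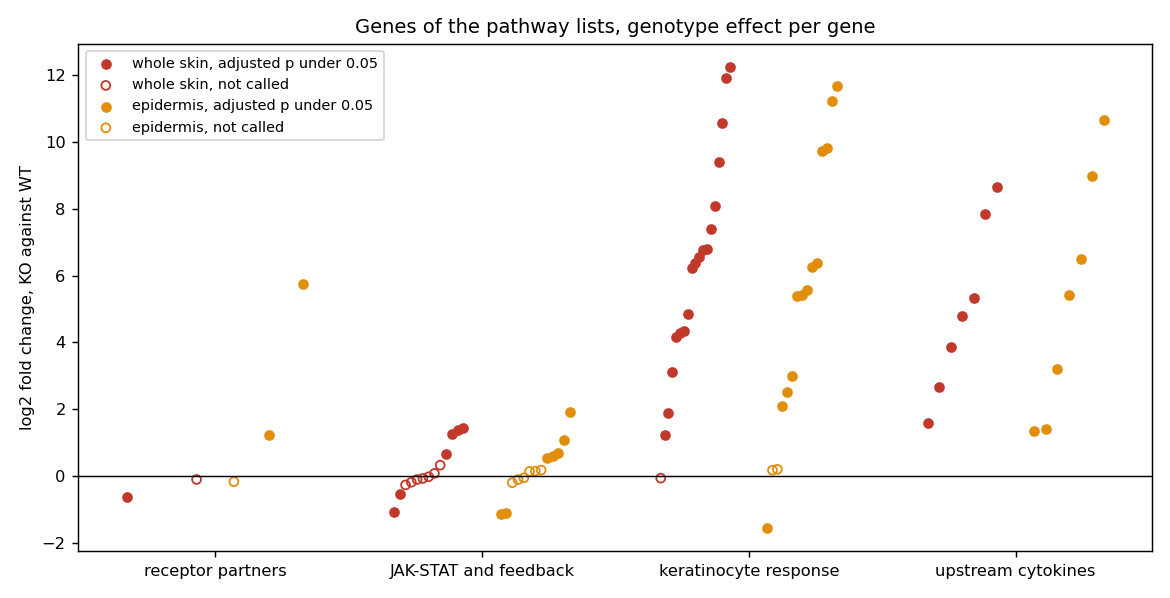
Difference between KO and WT for each tested gene of the 4 groups of pathway genes (y axis, log2 fold change, with lower bounds or ratios of reads for genes with at most 3 reads in a group), sorted by size within a group, for whole skin and epidermis. Filled points passed the adjusted threshold of 0.05. Genes of the keratinocyte response and the upstream cytokines lie mostly above 0, up to 12.24 for S100a9 in skin, while JAK-STAT genes lie between -1.14 and 1.91.

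The neighbours of the cytokine cluster did not all move with it. Within 100 kb, Fcamr (log2 1.15, adjusted p = 0.0872 in skin, and 1.08, adjusted p = 0.0451 in epidermis) and Pigr (log2 0.07, adjusted p = 0.958, and 1.27, adjusted p = 0.265) had smaller fold changes than Il19 and Il20. Fcmr, between Pigr and Il24, had 32 reads in Skin KO against 1 in Skin WT and 15 in Epidermis KO against 2 in Epidermis WT. Il10, on the other side of the cluster, showed the reads given above. Next to Il22ra2 and Il20ra, Ifngr1, the gene of an interferon gamma receptor chain, was not called (log2 -0.30, adjusted p = 0.110 in skin, and -0.20, adjusted p = 0.311 in epidermis), nor was Pex7 (log2 0.09, adjusted p = 0.615, and -0.26, adjusted p = 0.106).

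The genes whose profile over the 12 libraries was closest to that of each member were ranked by the root mean square (RMS) difference of centred log2 (CPM + 0.5) values among 12989 or 12990 genes. Nearest to Il19 were Klk12 (RMS 0.44), Defb3 (0.47) and Wfdc12 (0.49), 3 genes of secreted skin proteins. In WT, Il19 and these 3 genes had means of at most 0.314 CPM in skin and 0.230 in epidermis. The added 0.5 CPM thus narrows their profiles. Klk12 stood at 23.3 ± 6.74 CPM in Skin KO and 6.07 ± 3.25 in Epidermis KO against 0.314 ± 0.139 in Skin WT and 0.230 ± 0.199 in Epidermis WT (SD, n = 3). Nearest to Il20 were Flg (0.26), which encodes filaggrin of the cornified layer, Kif11 (0.33), a mitotic kinesin, and Tcf23 (0.37). With WT means of 0.404 CPM in skin and 0.110 in epidermis, the profile of Il20 is narrowed by the added 0.5 CPM. Flg went from 60.4 to 268 CPM in skin and from 42.8 to 147 in epidermis. Kif11 went from 8.71 to 40.8 and from 7.64 to 18.2 CPM. These are smaller changes than those of Il20 (log2 3.25 and 3.99). Nearest to Il24 were Rhof, Zdhhc13 and Otub2 (0.29 to 0.31). The added 0.5 CPM narrows the profile of Il24, which had 0 reads in Skin WT, to a range of 2.28 on the log2 scale, whereas Rhof went from 4.46 to 15.6 CPM and Otub2 from 14.8 to 41.0 CPM in skin. Il20ra was closest to Slc22a4 (0.21), Sectm1a (0.22) and Abhd14b (0.27), and Il20rb to Cyp39a1 (0.12), H2-T22 and Efna3 (both 0.13). Il22ra2 was closest to Mboat2 (0.17), Itpkb (0.18) and Hdac5 (0.20), Il22ra1 to Snx29 (0.15), Ash1l and Kat6a (both 0.21), and Il10rb to Cmtr2, Snx9 (both 0.14) and Dnajc10 (0.15). No member was among the 3 nearest genes of another member. Il24 could not be, as its mean was under the 1 CPM asked of the genes compared. These distances describe 12 libraries in 4 groups and carry no test, and they are smaller for genes that vary little.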

How the data were processed

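RNA-seq of 12 libraries was used, in 4 groups of 3 named by the sample titles. The deposited expected counts and TPM values, 1 per gene and library, come from RSEM, which the authors ran on STAR 2.5.1 alignments (mm10) of reads from bcl2fastq 2.17 (submitters' processing notes, file headers). A stranded poly(A) kit was used, per the labels' protocols. Which annotation was used, and whether counting used strand, is not given in the sources used here. Reads that fit several genes are split by RSEM by probability (8.42% to 9.98% of the values in a library were not whole), so related genes can share reads. Symbols and positions came from GENCODE mouse release 21, which matched 47224 of the IDs after the version number was dropped. The 419 unmatched IDs stayed in the totals.

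Expected counts were rounded and tested with edgeR 4.0.16 (R 4.3.3): quasi-likelihood test, TMM scaling, default filter on low counts, and Benjamini-Hochberg adjustment over all genes tested (threshold 0.05). Each comparison of 2 groups used its 6 libraries, and the difference between tissues used all 12. The SE is the fold change divided by the square root of F. The fold of a gene with 0 reads in a group is a bound against 3 reads over the group, and one with 1 to 3 reads is a ratio of reads with its exact 95% interval. These allow for counting error only. Groups with under 10 ratios were compared with exact permutation tests. On simulated counts the skin fit recovered 82.7% of genes changed 4-fold and 15.2% changed 2-fold, the epidermis fit 95.8% and 57.7%, and the tissue difference 55.7% and 14.1%. In the skin simulation 98 tested genes were changed 4-fold, 99 were changed 2-fold and the other tested genes were left unchanged. In the data 45.5% of the genes tested in skin and 51.5% in epidermis were called. With few changed genes the adjusted threshold is stricter, so these shares need not hold for the genes described here.

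In skin, WT and KO libraries of the same number deviated together from their group means (r across genes 0.332, 0.332 and 0.238, against -0.448 to 0.157 for different numbers), a pairing that the labels do not give. The tests did not use it, and the replicate number as a block was an alternative. Libraries of a group had rank correlations from 0.954 to 0.991 and differed by more than sampling noise. Alternatives were DESeq2 1.42.0, limma-voom (limma 3.58.1), RLE scaling, TMM without hair, keratin and muscle genes, effective length offsets, no filter, 1 fit of all libraries, a replicate block, each library left out, and Y-linked reads as a covariate or a reason to leave libraries out.

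The genes and lists were chosen with earlier results of these data known, so their counts are descriptions. Named were the 8 members, up to 4 genes of each pathway list with the smallest adjusted p, members of a list at low counts that are counted, Adam17, and the 3 most alike genes (mean of at least 1 CPM) of each member. Mmp3 was named in addition, as the lower gene of its list in epidermis.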

Additional observations from a re-analysis of the deposited data

Results flagged for a closer look

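The genotype effect differed between the tissues for 6 of the 13 JAK-STAT genes and 4 of the 19 keratinocyte response genes tested, by the interaction term of the edgeR quasi-likelihood fit of all 12 libraries (log2, epidermis minus skin, with Benjamini-Hochberg adjustment). For Socs3 the difference was -2.33 (adjusted p = 0.000226), with a rise in skin and a fall in epidermis, and it was called in all 20 alternatives (adjusted p at most 0.00123). For Stat5b it was 1.30 (adjusted p = 0.00509), called in all 20 alternatives (adjusted p at most 0.0159). For Jak1 it was 0.60 (adjusted p = 0.0311, at most 0.0786 over the alternatives). For Stat3 it was also 0.60 (adjusted p = 0.0496, close to the threshold, and from 0.0082 to 0.122 over the alternatives). The other JAK-STAT genes were Ptpn2 (-0.69, adjusted p = 0.0203, at most 0.0558) and Stat5a (0.68, adjusted p = 0.0213, at most 0.0611). The 4 keratinocyte response genes called all had a negative difference: Hbegf, an EGF receptor ligand, with -4.02 (adjusted p = 0.00104) and Cxcl1, a neutrophil chemokine, with -4.20 (adjusted p = 0.00391) were called in all 20 alternatives, and Saa1 (-4.42, adjusted p = 0.0436, at most 0.152) and Krt17 (-0.98, adjusted p = 0.0469, at most 0.112) were not. Hbegf stood at 5.69 CPM in Skin WT and 70.4 in Epidermis WT, and at 105 in Skin KO and 80.1 in Epidermis KO. Cxcl1 stood at 0.0989 and 1.81 CPM in the WT groups, and at 11.3 and 10.3 in the KO groups. For both genes the tissues thus differed in WT more than in KO. Ptpn2, Stat5a and the 4 keratinocyte response genes lie outside the rule for named genes and were chosen after their values were seen. Of all genes tested 16.5% had such a difference.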

How the results depend on the processing

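Of 583 alternative fold changes of the members, 529 kept direction and side of the threshold, 38 lost the call, 14 gained one and 2 changed sign. In skin the 6 called members were called in all 16 alternatives, and in epidermis Il19, Il20, Il20ra, Il20rb and Il22ra2 in all 15. Il10rb, not called in skin, ranged from -0.065 (without Skin WT 1, adjusted p = 0.651) to 0.25 as libraries were left out, and the log2 ratio of its group means was -0.0081 in TPM. The tissue difference of Il19 turned to -0.14 in limma-voom (adjusted p = 0.960). The cause of these changes was not tested.

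Genes called in skin went from 6780 to 2658 without the KO libraries with Y-linked reads, with fewer libraries, and in epidermis from 7014 to 4540 with the Y-linked covariate, where members called higher went from 4 to 2. In the WT tissues, 2 members in place of 1 were called lower in DESeq2, without a filter, with the replicate block and in 1 fit of all 12 libraries. Leaving out 1 library gave 2 to 4 members higher in epidermis, 1 to 3 higher and 1 to 2 lower between the WT tissues, 1 to 2 lower (3 with all libraries) and 2328 to 3561 genes called between the KO tissues (4227 with all, lowest without Skin KO 3), and 0 to 3 members higher and 1393 to 3940 genes called for the tissue difference (2539 with all, highest without Skin WT 1, lowest without Skin KO 2). DESeq2 called 2 members higher for the tissue difference.

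With the replicate block the KO tissues had 2805 genes called. Of the members, the block ended the call of Il20rb between the WT tissues (0.51, adjusted p = 0.0820), made one of Il22ra1 there (-1.12, adjusted p = 0.0336) and made 1 call for the tissue difference (Il22ra1, 1.37, adjusted p = 0.04996). It changed no other call of a member. Same-numbered libraries did not deviate together in epidermis (r 0.0887, 0.172 and -0.0895) or between tissues.

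Low reads limit Il24 in epidermis most: it passed the test without the filter (3.72, adjusted p = 0.0195) and in 1 fit of all 12 libraries (3.74, adjusted p = 0.0131). Fitted values of genes with almost no reads in WT depend on the prior count.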

Other observations

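The tables also give the mean transcript length that RSEM assigned to each gene in each library. For Il20 it was 1186 bases in all 6 WT libraries, the length of its 5-exon transcript in GENCODE, where the other annotated transcript has 465 bases. In KO it was 1072.38, 1014.67 and 1005.91 bases in skin and 1014.89, 840.95 and 1096.59 bases in epidermis, so part of the reads was assigned to the shorter transcript in every KO library. The WT values rest on 1 to 13 reads a library, too few to tell whether the shorter transcript is missing there. For Il24 the length was 1159 bases, that of a 6-exon coding transcript, in Skin KO 3, Epidermis KO 1 and Epidermis KO 3. The 1 read in Epidermis WT 2 was assigned to a transcript of 391 bases annotated for nonsense-mediated decay.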
